A study of Mus musculus with 9 samples.

Results

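The genes described here are 9 regulators of DNA methylation: the methyltransferases Dnmt1, Dnmt3a and Dnmt3b, the hemimethylation readers Uhrf1 and Uhrf2, the dioxygenases Tet1, Tet2 and Tet3, and the histone methyltransferase Nsd1. They were found by their symbol in the deposited table, where they are 9 of 49671 genes. Of these, 7 are the standard writers, readers and erasers of cytosine methylation. Uhrf2 and Nsd1 were chosen by their low read counts in the knockout-labelled clone in earlier results of the same libraries. Their levels in that clone are therefore given as a description, with no p-value.

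The cells were Panc02, a pancreatic ductal adenocarcinoma line of the mouse, kept in DMEM with 10% fetal bovine serum and given no treatment. Poly(A) RNA was sequenced in 9 libraries, in 3 groups of 3. The parental group was the unedited line, labelled wild type. KO_1E7 was a single clone whose label gives a VPAC2 knockout; VPAC2, encoded by Vipr2, is a receptor for the peptide VIP. CRISPR_1G2 was a single clone labelled wild type after CRISPR, whereas the series' design text counts both clones among the knockout cells. With 1 clone per edited group, loss of VPAC2 and the history of a clone cannot be told apart. The labels do not say whether the libraries of a group are separate cultures, and p-values measure the spread between these libraries, which may be technical.

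The libraries held 27898705 to 51878289 counts on genes, and 15766 genes were tested. Vipr2 itself had 0.0283 to 0.0379 CPM (counts scaled to library size, as given throughout) in KO_1E7, 0.0828 to 0.334 CPM in parental and 0.0363 to 0.410 CPM in CRISPR_1G2, too few reads to check the label. Some libraries stood apart. In parental 3, 15.3% of counts fell on CT010467.1, a ribosomal RNA-related transcript, against 0.465% to 1.04% elsewhere. Together with CRISPR_1G2 3 it had the lowest Top2a of all 9 libraries and the highest Cdkn1a and Mdm2. Both carry the word NSG in their deposited names, as does KO_1E7 3, where the other libraries carry dates. KO_1E7 2 lay apart from KO_1E7 1 and 3 at many genes, Uhrf2 among them. The keratins Krt8, Krt18 and Krt19 of ductal cells were present in every library (Krt8 at 248 to 1033 CPM), and the acinar gene Prss1 had 0 counts throughout. Of 7 genes listed for the ductal line, edgeR called 2 lower in KO_1E7 and 0 higher, Krt7 against both other groups and Epcam against CRISPR_1G2. Krt7 was at 17.7 to 30.5 CPM in parental, 4.01 to 5.31 CPM in KO_1E7 and 13.7 to 67.2 CPM in CRISPR_1G2, and its log2 fold change in KO_1E7 was -2.497 ± 0.51 against parental (edgeR, adjusted p = 0.0323; called in 3 of 9 fits that each left out 1 library) and -3.23 ± 0.53 against CRISPR_1G2 (adjusted p = 0.00759). Epcam was at 3.53 to 7.04 CPM in parental, 0.746 to 3.43 CPM in KO_1E7 and 4.95 to 16.6 CPM in CRISPR_1G2, and its log2 fold change in KO_1E7 was -1.73 ± 0.65 against parental (adjusted p = 0.154) and -2.83 ± 0.67 against CRISPR_1G2 (edgeR, adjusted p = 0.0292; called in 4 of 9 such fits). Cdh1 of the same list ran the other way, at 10.2 to 21.8 CPM in parental, 15.04 to 47.1 CPM in KO_1E7 and 5.83 to 16.3 CPM in CRISPR_1G2. Its log2 fold change in KO_1E7 was 0.93 ± 0.49 against parental and 1.40 ± 0.50 against CRISPR_1G2 (edgeR, adjusted p = 0.292 and 0.102). DESeq2 called 2 of the list lower and 1 higher between the clones, and 2 lower and 0 higher in KO_1E7 against parental. The part of these markers in the results on the 9 genes was not tested. Of 15 markers of other cell types, 3 had 0 counts in every library, and their summed level was 66.9 to 79.4 CPM in parental, 64.4 to 126 CPM in KO_1E7 and 41.3 to 75.02 CPM in CRISPR_1G2. Most of it was Pdgfrb in parental and KO_1E7, while CRISPR_1G2 had 18.2 to 29.8 CPM of Pdgfrb and 15.8 to 33.3 CPM of Col1a1.

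Methylation of cytosine in CpG pairs is copied after each round of DNA replication. UHRF1 binds hemimethylated CpG sites and marks histone H3 with ubiquitin, which brings DNMT1 to the new strand. UHRF2 has the same domain order, including the SRA domain that binds methylated or hydroxymethylated DNA and the RING domain of a ubiquitin ligase, but does not replace UHRF1 in maintenance. DNMT3A and DNMT3B methylate unmodified sites. TET enzymes oxidise 5-methylcytosine, after which the base is lost by dilution or excised by TDG and repaired. NSD1 places dimethylation on lysine 36 of histone H3 between genes, a mark that the PWWP domain of DNMT3A reads. Methylation itself was not measured here.

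The gene whose level differed most between groups was Uhrf2 (ENSMUSG00000024817), on the plus strand of chromosome 19 from 30030513 to 30093722 on GRCm38. RefSeq places a start of Uhrf2 at the same base as the deposited gene edge. The 250 bases before that start, chr19:30030263-30030512 on the plus strand of GRCm38.p6, are shown for their CG pairs, the pair that can carry cytosine methylation. Whether any pair in this window was methylated was not measured. The capitals mark CG pairs.
Uhrf2 promoter: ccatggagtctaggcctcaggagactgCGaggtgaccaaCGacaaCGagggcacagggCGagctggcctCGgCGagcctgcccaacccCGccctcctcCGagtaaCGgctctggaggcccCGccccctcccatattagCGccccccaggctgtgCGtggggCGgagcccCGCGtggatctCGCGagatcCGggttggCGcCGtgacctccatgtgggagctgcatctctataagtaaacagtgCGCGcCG
This window held 23 CG pairs at 67.6% GC. Among 32851 RefSeq promoters of the same length, the median was 6 CG pairs, and 13.31% held 23 or more. The pair CG reads the same on both strands. Entries were found for 8 of the 9 genes and not for Nsd1. The windows of Tet2 and Tet3 held 51 and 17 CG pairs, but their RefSeq starts lay 749 and 17406 bases from the deposited gene edge. With a window for each RefSeq start, Dnmt1 held 2, 7 and 26 CG pairs and Dnmt3a 38, 40 and 15. Uhrf1 held 10 and 30, Dnmt3b 21 and Tet1 15.

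Uhrf2 transcripts were nearly lost in KO_1E7. The parental libraries had 37.5, 33.0 and 43.2 CPM. KO_1E7 1, 2 and 3 had 0.820, 7.45 and 0.836 CPM, from 29, 393 and 28 counts. CRISPR_1G2 1, 2 and 3 had 24.7, 27.6 and 49.3 CPM. Every KO_1E7 library lay below every library of the other groups, which 17.3% of all tested genes did against parental and 19.4% against CRISPR_1G2, and the parental and CRISPR_1G2 libraries overlapped. The KO_1E7 mean was 8.01% of the parental mean, and fitted log2 fold changes were -3.61 ± 0.81 against parental and -3.45 ± 0.81 against CRISPR_1G2 (SE, with 3 libraries in each group). For CRISPR_1G2 against parental the log2 fold change was -0.16 ± 0.73, which did not pass (edgeR quasi-likelihood test, adjusted p = 0.988).

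The 3 KO_1E7 libraries did not hold the same amount of Uhrf2. KO_1E7 2 had 8.997 times the mean of KO_1E7 1 and 3. The log2 fold change against parental was -5.51 with KO_1E7 2 left out, and -3.04 in the dated libraries alone. Placed between the mean of KO_1E7 1 and 3 (0%) and the parental mean (100%), the Uhrf2 level of KO_1E7 2 stood at 17.9%. Uhrf2 is among the 71 genes with at least 5 CPM in parental and under 10% of that in KO_1E7 1 and 3. Over these 71 the median position of KO_1E7 2 was 20.2% (quartiles 4.31% and 35.1%), and 61 lay above 0. They were picked on KO_1E7 1 and 3 without KO_1E7 2, and a level that low leaves little room below. The choice thus favours positions above 0. A lower number of cells with the transcript and less transcript in each cell cannot be told apart in bulk RNA.

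Nsd1 (ENSMUSG00000021488, plus strand of chromosome 13, 55209782 to 55318325) was lower in KO_1E7 by a smaller and more even amount. The parental libraries had 57.7, 50.5 and 48.2 CPM. KO_1E7 had 18.7, 19.6 and 20.6 CPM, and CRISPR_1G2 had 46.1, 46.8 and 40.1 CPM. The KO_1E7 libraries lay within 2 CPM of each other and far below the rest, and each CRISPR_1G2 library lay below each parental one, as did 6.45% of all tested genes. For KO_1E7 below the rest, the shares of all tested genes are those given for Uhrf2. The KO_1E7 mean was 37.6% of the parental mean. Log2 fold changes were -1.41 ± 0.13 against parental and -1.18 ± 0.13 against CRISPR_1G2 (SE). They ranged from -1.49 to -1.33 and from -1.26 to -1.13 over 21 other ways of fitting. For CRISPR_1G2 against parental the value was -0.24 ± 0.13 and did not pass (edgeR, adjusted p = 0.736). Unlike for Uhrf2, KO_1E7 2 had the same Nsd1 level as KO_1E7 1 and 3, at 0.997 times their mean and at -0.21% of the way to parental. Of the 326 genes that KO_1E7 1 and 3 held at 30% to 50% of parental, 20.86% stood lower than that and the median was 18.7%. These genes, Nsd1 among them, were also picked without KO_1E7 2, which favours positions above 0.

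**Figure D1:**
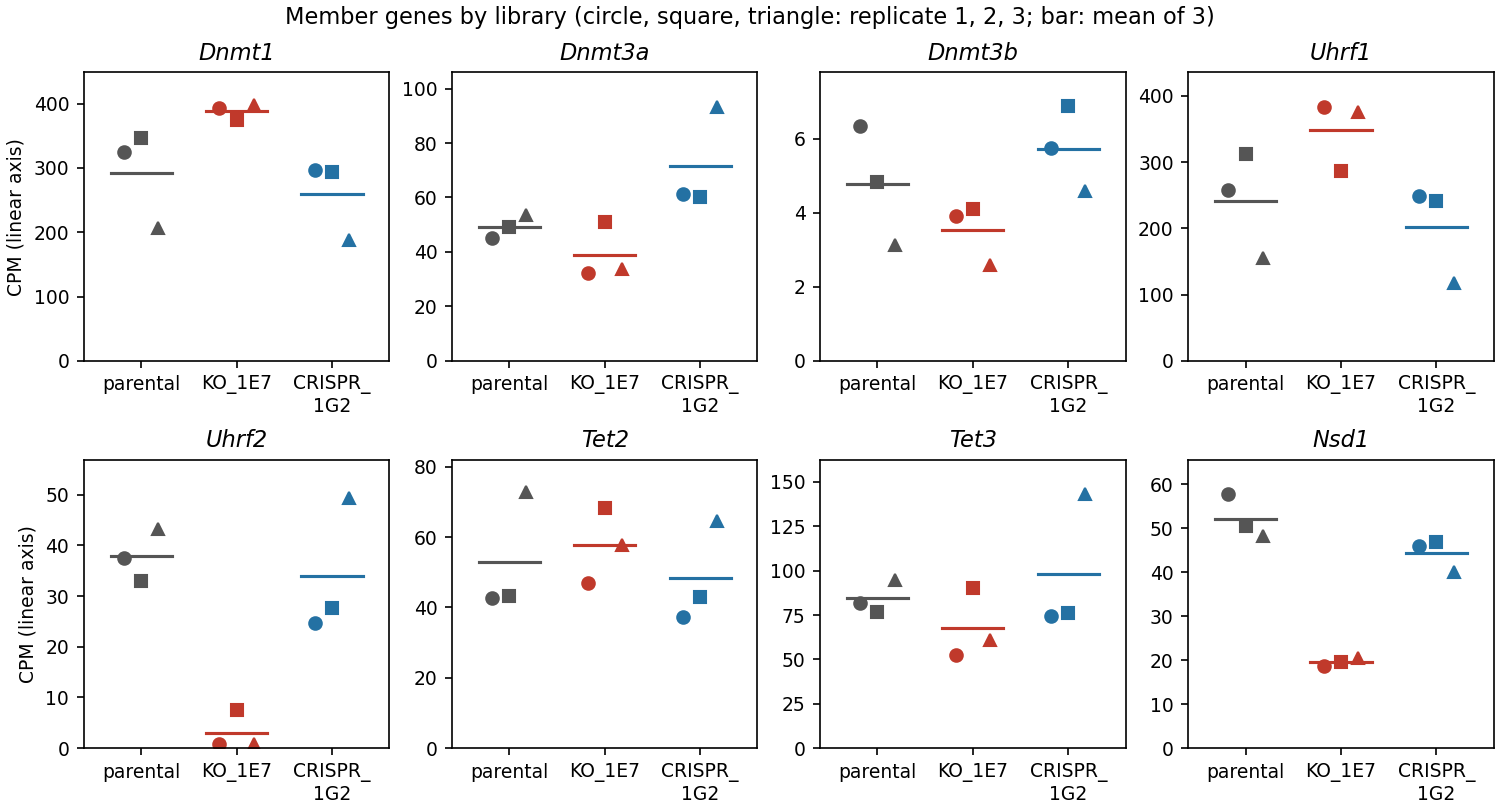
Level of 8 of the 9 genes in each library, in CPM on a linear axis from 0, with circle, square and triangle for replicates 1, 2 and 3 of parental (grey), KO_1E7 (red) and CRISPR_1G2 (blue) and a bar for the mean of 3. Uhrf2 and Nsd1 in KO_1E7 lie below every other library, KO_1E7 2 has 7.45 CPM of Uhrf2 where KO_1E7 1 and 3 have 0.820 and 0.836, and Tet1, with 6 counts in all, is not drawn.

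Apart from Uhrf2 and Nsd1, 6 members were tested. In KO_1E7 against parental, edgeR called 0 of these 6, 0 had an unadjusted p under 0.05, and DESeq2 called 0. Of all tested genes 5.42% were called there (2.54% higher and 2.87% lower). In KO_1E7 against CRISPR_1G2, where 12.7% of all genes were called (5.71% higher and 7.03% lower), 1 of the 6 was lower, Dnmt3a, and 0 were higher. Dnmt1 and Uhrf1 were higher there at an unadjusted p under 0.05, and DESeq2 called 0 higher. Uhrf2 and Nsd1 were lower past the same threshold in both contrasts, which only repeated the choice of these genes on these libraries and is read as nothing more. In CRISPR_1G2 against parental, where 0.254% of all genes were called, edgeR and DESeq2 called 0 of all 8 tested members, and Dnmt3a alone had an unadjusted p under 0.05. The contrasts share libraries, so their values are not independent of each other.

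**Figure D2:**
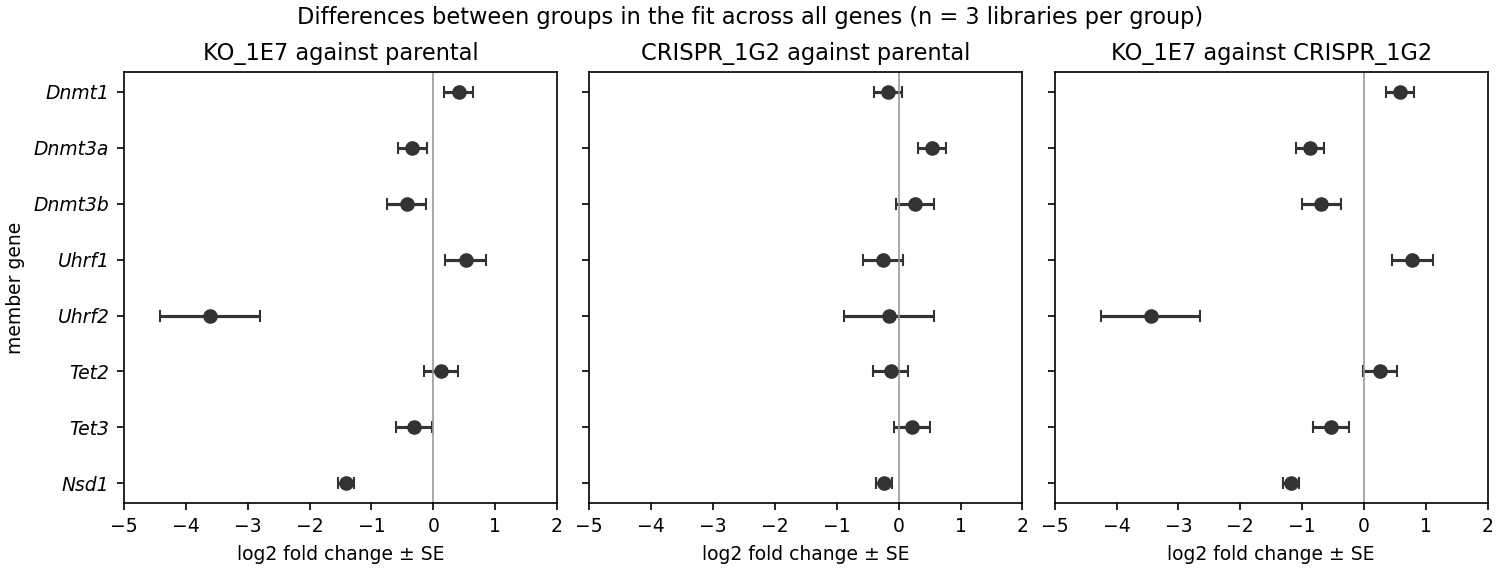
Fitted log2 fold change (x axis, ± SE) of 8 genes in the 3 comparisons, with n = 3 libraries per group. Uhrf2 and Nsd1 lie at -3.61 and -1.41 in KO_1E7 against parental, and the other genes lie between -0.43 and 0.52 there.

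Neither gene of the maintenance pair, Uhrf1 and Dnmt1, was called in any comparison when the 3 groups alone were fitted to the 9 libraries. Dnmt1 (ENSMUSG00000004099, minus strand of chromosome 9, 20907209 to 20959888) copies methylation to the new strand. It had 324.8, 346.0 and 207.3 CPM in parental, 393.9, 375.0 and 397.6 CPM in KO_1E7, and 296.7, 294.4 and 188.3 CPM in CRISPR_1G2. All KO_1E7 libraries lay above all others, a pattern that 17.2% of all tested genes had against parental and 19.2% against CRISPR_1G2. The log2 fold change of Dnmt1 was 0.41 ± 0.23 against parental (edgeR, adjusted p = 0.321) and 0.58 ± 0.23 against CRISPR_1G2 (adjusted p = 0.135), neither of which passed.

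Uhrf1 (ENSMUSG00000001228, plus strand of chromosome 17, 56303321 to 56323486), the paralog of Uhrf2, had 258.4, 312.4 and 155.3 CPM in parental. It had 382.8, 286.2 and 375.3 CPM in KO_1E7 and 249.5, 241.4 and 117.2 CPM in CRISPR_1G2. KO_1E7 and parental libraries overlapped, through KO_1E7 2, and KO_1E7 lay above CRISPR_1G2 in every library, as it did for 19.2% of all tested genes. Log2 fold changes of 0.52 ± 0.33 against parental (edgeR, adjusted p = 0.374) and 0.78 ± 0.33 against CRISPR_1G2 (adjusted p = 0.158) did not pass. In CRISPR_1G2 against parental, Dnmt1 at -0.17 ± 0.23 and Uhrf1 at -0.26 ± 0.33 did not pass either (edgeR, adjusted p = 0.943 and 0.934).

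Within parental and within CRISPR_1G2, the third library was the lowest for both Uhrf1 and Dnmt1. The cycling genes Mki67 and Top2a had the same order: Top2a was at 742, 915 and 413 CPM in parental and 944, 923 and 453 CPM in CRISPR_1G2, against 599, 752 and 664 CPM in KO_1E7. The p53 targets Cdkn1a and Mdm2 had the opposite order, with Cdkn1a at 43.2, 31.8 and 189 CPM in parental, 64.6, 72.9 and 480 CPM in CRISPR_1G2, and 40.5, 44.2 and 34.2 CPM in KO_1E7. These 4 genes were chosen after their values were seen, and their part in the levels of Uhrf1 and Dnmt1 was not tested. With a term for the NSG names in the fit, KO_1E7 exceeded CRISPR_1G2 by 0.63 for Dnmt1 and 0.88 for Uhrf1 on the log2 scale, and both passed (edgeR, adjusted p = 0.0298 and 0.0417). With parental 3 and CRISPR_1G2 3 left out, KO_1E7 exceeded CRISPR_1G2 by 0.41 for Dnmt1 and 0.51 for Uhrf1 on the log2 scale, and both passed (edgeR, adjusted p = 0.00834 and 0.0273). Over the 9 libraries, which share these groups and depths, log2 CPM of Dnmt1 and Uhrf1 had a Pearson correlation of 0.98 and a Spearman correlation of 0.967, given as a description.

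The ratio of the paralogs is given as a description. Uhrf2 was chosen for its low counts in KO_1E7, so a low ratio there repeats that choice. Per length of exons, Uhrf2 stood at 0.0720, 0.0524 and 0.138 of Uhrf1 in parental and at 0.0491, 0.0567 and 0.209 in CRISPR_1G2. In KO_1E7 the ratio was 0.00106, 0.0129 and 0.00110. Uhrf1 was the more abundant paralog in all 9 libraries, and the KO_1E7 ratios lay below all others.

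Dnmt3a (ENSMUSG00000020661, plus strand of chromosome 12, 3806007 to 3914443), a de novo methyltransferase, differed between the clones. It had 45.2, 49.1 and 53.6 CPM in parental and 32.3, 50.8 and 33.9 CPM in KO_1E7. In CRISPR_1G2 it had 61.3, 60.1 and 93.3 CPM. CRISPR_1G2 lay above both other groups in every library, a pattern that 6.64% of all tested genes had against parental and 19.4% against KO_1E7. KO_1E7 and parental overlapped through KO_1E7 2. Dnmt3a was lower in KO_1E7 than in CRISPR_1G2 by a log2 fold change of -0.87 ± 0.23 (edgeR, adjusted p = 0.0404). It was called in 13 of 22 fits, and its adjusted p ranged from 0.000219 to 0.165. The call was lost when any 1 of parental 1, parental 2, KO_1E7 1, KO_1E7 3 or the 3 CRISPR_1G2 libraries was left out. Leaving out the third library of each group gave -0.52 (adjusted p = 0.111). Differences of -0.34 ± 0.23 for KO_1E7 and 0.54 ± 0.23 for CRISPR_1G2 against parental did not pass (adjusted p = 0.411 and 0.633).

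Dnmt3b (ENSMUSG00000027478, plus strand of chromosome 2, 153649450 to 153687730), the other de novo enzyme, was rarer. It had 6.34, 4.83 and 3.14 CPM in parental, 3.90, 4.11 and 2.597 CPM in KO_1E7, and 5.74, 6.87 and 4.58 CPM in CRISPR_1G2. KO_1E7 lay below CRISPR_1G2 in every library, as it did for 19.4% of all tested genes, and the third library was the lowest of each group. The log2 fold change of Dnmt3b was -0.43 ± 0.32 for KO_1E7 against parental, 0.26 ± 0.31 for CRISPR_1G2 against parental and -0.69 ± 0.32 between the clones, and none passed (edgeR, adjusted p = 0.448, 0.925 and 0.186). Between the clones Dnmt3b was called lower in 3 of 22 fits, and its adjusted p ranged from 0.02096 to 0.470. Among them were the fit with a term for the NSG names and the fit without parental 3 and CRISPR_1G2 3. The germline enzyme Dnmt3c had 1 count in all 9 libraries together. The antisense genes Dnmt3aos and Dnmt3bos, which overlap Dnmt3a and Dnmt3b, had 42 and 4 counts of their own in all. The part of antisense reads in the levels of Dnmt3a and Dnmt3b was not tested.

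Of the erasers, Tet1 (ENSMUSG00000047146, minus strand of chromosome 10, 62804570 to 62899118) was at the limit of detection. It had 2, 0 and 1 counts in parental, 0, 1 and 0 in KO_1E7, and 0, 1 and 1 in CRISPR_1G2, and it was not tested. Every library was under the 3 counts that a count of 0 allows, so no difference was detectable at this depth.

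Tet2 (ENSMUSG00000040943, minus strand of chromosome 3, 133463679 to 133545139) had 42.7, 43.3 and 72.8 CPM in parental, 47.0, 68.2 and 57.8 CPM in KO_1E7, and 37.4, 43.0 and 64.6 CPM in CRISPR_1G2. Tet3 (ENSMUSG00000034832, minus strand of chromosome 6, 83362373 to 83459084) had 81.7, 76.9 and 94.7 CPM in parental, 52.5, 90.0 and 60.7 CPM in KO_1E7, and 74.3, 76.0 and 143 CPM in CRISPR_1G2. For both genes all 3 groups overlapped, the third library was the highest of parental and of CRISPR_1G2, and KO_1E7 2 was the highest of KO_1E7. Against parental, KO_1E7 differed by 0.12 ± 0.28 for Tet2 and -0.32 ± 0.29 for Tet3 on the log2 scale (edgeR, adjusted p = 0.830 and 0.549). CRISPR_1G2 differed from parental by -0.13 ± 0.28 for Tet2 and 0.21 ± 0.29 for Tet3 (adjusted p = 0.975 and 0.947). Between the clones the values were 0.25 ± 0.28 for Tet2 and -0.53 ± 0.29 for Tet3 (adjusted p = 0.592 and 0.266). None of these passed, and the SE values leave room for differences of either sign. Between the clones Tet2 was called higher in 2 of 22 fits (lowest edgeR adjusted p = 0.03398). One of these was the fit without parental 3 and CRISPR_1G2 3. Tet3 was called lower there in 1 of 22 fits (edgeR, adjusted p = 0.0124), the one that also left out KO_1E7 2.

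Levels of different genes were compared per length, as RPKM, CPM divided by the length of the exons in kilobases. In parental libraries the order ran from Uhrf1 at 56.8 ± 18.7 and Dnmt1 at 39.7 ± 10.1 to Tet3 at 5.06 ± 0.55, Uhrf2 at 4.41 ± 0.60, Nsd1 at 4.08 ± 0.39, Tet2 at 3.14 ± 1.02, Dnmt3a at 2.96 ± 0.25 and Dnmt3b at 0.934 ± 0.313 RPKM (SD, n = 3). Tet1 came last, at 0.00187 RPKM. Neighbours in this order overlapped, except that Dnmt1 lay above Tet3, Dnmt3a above Dnmt3b and Dnmt3b above Tet1 in every library. In CRISPR_1G2 Uhrf1 and Dnmt1 again led, at 47.6 ± 17.4 and 35.2 ± 8.39 RPKM, and Uhrf2 was the fifth at 3.94 ± 1.57 RPKM. In KO_1E7 Uhrf1 was at 81.7 ± 12.6 and Dnmt1 at 52.7 ± 1.64 RPKM, while Uhrf2 was the eighth at 0.353 ± 0.445 RPKM, behind Nsd1 at 1.53 ± 0.07 and Dnmt3b at 0.693 ± 0.161 RPKM. Dnmt3b and Uhrf2 overlapped there, through KO_1E7 2.

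The genes whose log2 CPM ran most like Uhrf2 over the 9 libraries were Acot6 (Pearson r = 0.994), Zfp141 (0.993), Zfp110 (0.992), Fuom (0.989) and Prickle2 (0.989). Zfp141 and Zfp110 encode zinc finger proteins, Acot6 an acyl-CoA thioesterase, Fuom a fucose mutarotase and Prickle2 a planar cell polarity protein. Zfp110 had 46.3, 34.6 and 46.4 CPM in parental and 0.933, 9.23 and 0.657 CPM in KO_1E7. In all 5, as in Uhrf2, KO_1E7 2 lay above KO_1E7 1 and 3. The 5 were chosen by likeness to Uhrf2 over these same libraries, so this repeats the choice. Zfp141, Zfp110 and Fuom lie on chromosome 7, Acot6 on chromosome 12 and Prickle2 on chromosome 6, none of them the chromosome of Uhrf2.

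Among the genes that ran most like Nsd1 were Pes1 (r = 0.993), Alg8 (0.992), Dut (0.988) and Exosc5 (0.980). Pes1 acts in ribosome assembly, Alg8 in glycosylation, Dut in removing dUTP, and Exosc5 encodes a subunit of the RNA exosome. Exosc5 had 33.9, 31.3 and 26.3 CPM in parental, 12.97, 13.5 and 11.7 CPM in KO_1E7 and 28.4, 32.1 and 22.8 CPM in CRISPR_1G2. Alg8 and Exosc5 lie on chromosome 7, where the median log2 fold change of the 1240 tested genes in KO_1E7 against parental was -0.45, against -0.03 over all genes. Ranked by Spearman correlation instead, 0 of the first 5 for Uhrf2 and 1 of the first 5 for Nsd1 remained among the first 5.

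**Figure D3:**
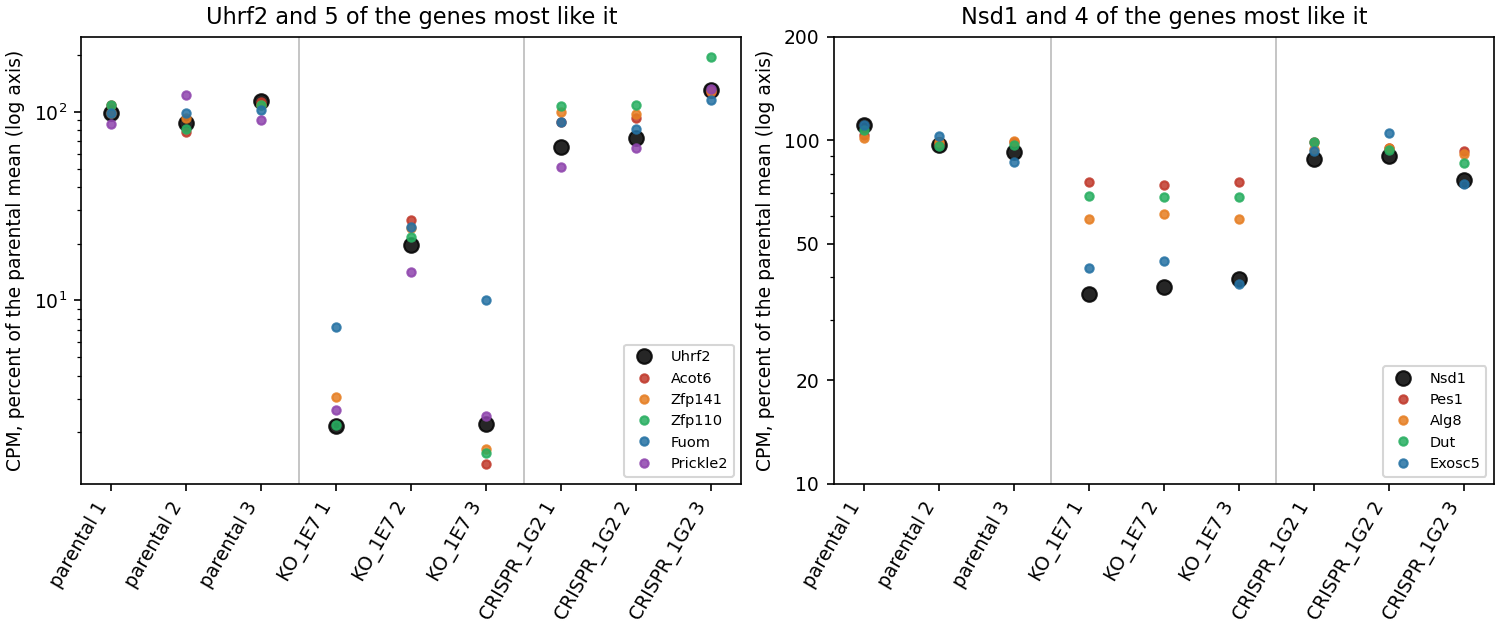
CPM in each library as a percent of the gene's parental mean, on a log axis, for Uhrf2 (left) and Nsd1 (right) in black and genes most like each in colour, 5 for Uhrf2 and 4 for Nsd1. Uhrf2 and its 5 companions are all higher in KO_1E7 2 than in KO_1E7 1 and 3, while Nsd1 is level across KO_1E7. The companions were chosen by likeness over these same libraries, so their shared course repeats the choice. Acot6 in KO_1E7 1 is at 0 CPM and cannot be drawn.

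None of the 3 nearest tested genes on each side of Uhrf2 or Nsd1 was called lower in KO_1E7 against parental. Il33, an alarmin cytokine gene 69.8 kb before Uhrf2, had 38.4, 44.2 and 15.6 CPM in parental, 63.4, 141 and 114 CPM in KO_1E7, and 2.36, 3.47 and 1.28 CPM in CRISPR_1G2. It differed from parental by a log2 fold change of 1.70 ± 0.47 in KO_1E7 (edgeR, adjusted p = 0.0697) and fell by 3.79 ± 0.52 in CRISPR_1G2 (adjusted p = 0.0282). On the other side, Gldc, a glycine cleavage gene 4.73 kb after Uhrf2, was under 1 CPM in every library and differed by -0.60 ± 0.61 in KO_1E7 (adjusted p = 0.596). Cstf2t, a cleavage stimulation factor gene and the next tested one at 989 kb, rose by 1.35 ± 0.26 in KO_1E7 (adjusted p = 0.0259) and fell by 1.92 ± 0.27 in CRISPR_1G2 (adjusted p = 0.0282). Neither Ranbp6 nor 9930021J03Rik, 218 and 225 kb before Uhrf2, passed, at 0.01 ± 0.28 and 0.17 ± 0.16 (adjusted p = 0.983 and 0.542), and neither did Asah2 at 0.85 ± 0.23 (adjusted p = 0.0652). Of the 16 other tested genes within 1 Mb of Uhrf2, 1 rose and 1 fell in KO_1E7 against parental.

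Around Nsd1, Rab24, whose nearest edge lies 0.898 kb after Nsd1, differed by -0.38 ± 0.29 (edgeR, adjusted p = 0.467), and Prelid1 by 0.56 ± 0.33 (adjusted p = 0.337). Mxd3, Zfp346, Uimc1 and Hk3 differed by 1.25 ± 0.87, -0.57 ± 0.57, 0.01 ± 0.15 and 2.08 ± 0.98 (adjusted p = 0.423, 0.590, 0.972 and 0.241). Of 36 other tested genes within 1 Mb, 1 rose and 1 fell, and their median log2 fold change was 0.14, the same as that of the 573 other tested genes of chromosome 13. No other annotated gene of the table overlaps Uhrf1, Uhrf2 or Nsd1.

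**Figure D4:**
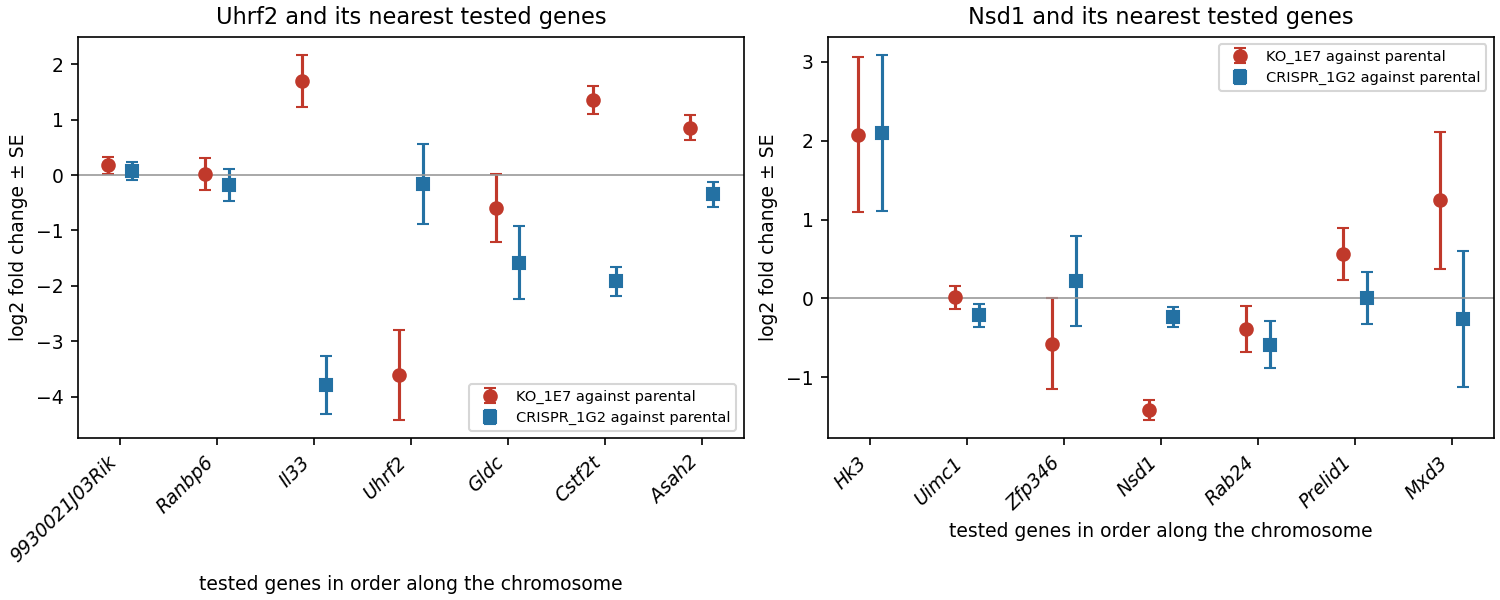
Log2 fold change (y axis, ± SE, n = 3 libraries per group) of Uhrf2 (left) and Nsd1 (right) and the 3 nearest tested genes on each side, in chromosome order, for KO_1E7 (red circles) and CRISPR_1G2 (blue squares) against parental. Uhrf2 at -3.61 sits between Il33 at 1.70 and Gldc at -0.60 in KO_1E7, and Nsd1 at -1.41 between Zfp346 at -0.57 and Rab24 at -0.38.

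Beyond the 9 genes, 7 lists of genes around the machinery, not all of them its partners, held 96 symbols, of which 95 were found and 90 tested. In KO_1E7 against parental, edgeR called 1 higher and 7 lower, 8.89% against 5.42% of all genes, and DESeq2 called 1 and 12. Their median log2 fold change was -0.04, against -0.03 over all genes. In CRISPR_1G2 against parental edgeR called 0 higher and 1 lower, 1.11% against 0.254% of all genes, where 5 were higher and 1 lower at an unadjusted p under 0.05 and DESeq2 called 2 and 1. Between the clones edgeR called 0 higher and 12 lower in KO_1E7, 13.3% against 12.7% of all genes, where 3 were higher and 20 lower at an unadjusted p under 0.05 and DESeq2 called 1 and 16.

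A list of 17 genes held partners of UHRF1 and DNMT1, heterochromatin genes and the elongation gene Paf1, and 15 of them were tested. In KO_1E7 against parental 2 fell and 0 rose (DESeq2: 2 and 0), with a list median of 0.06. Usp7, the deubiquitinase that binds DNMT1 and UHRF1, had 199.8, 227.9 and 179.0 CPM in parental, 117.5, 138.8 and 122.4 CPM in KO_1E7, and 276.7, 263.6 and 243.2 CPM in CRISPR_1G2. The groups were fully apart. Of all tested genes 17.3% lay lower without overlap in KO_1E7 against parental and 19.4% against CRISPR_1G2, and 6.64% lay higher in CRISPR_1G2 against parental. It fell in KO_1E7 by 0.68 ± 0.13 on the log2 scale against parental (edgeR, adjusted p = 0.0279) and was lower by a log2 fold change of -1.05 ± 0.13 against CRISPR_1G2 (adjusted p = 0.00349). Paf1, of the elongation complex of that name, fell by 0.66 ± 0.11 against parental (adjusted p = 0.0169). Between the clones it differed by -0.81 ± 0.11 (adjusted p = 0.00409), and the H3K9 methyltransferase gene Suv39h2 by -0.45 ± 0.12 (adjusted p = 0.0448).

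In the list for active demethylation and base excision repair, 19 of 20 genes were tested, with a median of -0.32 in KO_1E7 against parental, and 3 fell while 0 rose. At an unadjusted p under 0.05, 1 was higher, and DESeq2 called 0 higher. Tdg, the glycosylase that removes the oxidised bases made by TET enzymes, had 104.5, 110.8 and 116.5 CPM in parental, 70.1, 70.7 and 77.1 CPM in KO_1E7, and 130.1, 120.8 and 154.2 CPM in CRISPR_1G2. The groups did not overlap and had the order seen for Usp7, with the same shares of all tested genes. Tdg fell in KO_1E7 by 0.61 ± 0.13 against parental (edgeR, adjusted p = 0.0327), with a log2 fold change of -0.89 ± 0.13 against CRISPR_1G2 (adjusted p = 0.00489). The repair scaffold Xrcc1 and the ligase Lig3, which act together after excision, fell by 0.68 ± 0.14 and 0.51 ± 0.11 against parental (adjusted p = 0.0340 and 0.0393). Between the clones Xrcc1 and Lig3 differed by -0.83 ± 0.14 and -0.67 ± 0.11 (adjusted p = 0.00934 and 0.00929). Without parental 3 and CRISPR_1G2 3, 5 genes of this list fell and 3 rose against parental.

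Among CXXC proteins and readers of H3K4 methylation, which bind unmethylated CpG sites or chromatin there, all 8 were tested. Cxxc4 rose in KO_1E7 by 1.67 ± 0.40 against parental (edgeR, adjusted p = 0.0482), from 0.874, 0.856 and 0.361 CPM to 1.98, 2.39 and 2.33 CPM. The H3K4 methyltransferase gene Kmt2b fell by 0.55 ± 0.12 (adjusted p = 0.0375). In CRISPR_1G2 Cxxc4 was at 2.00, 2.46 and 1.221 CPM, also above every parental library, as were 6.64% of all tested genes. Between the clones Kmt2b differed by -0.76 ± 0.12 and Fbxl19, a CpG island-binding F-box gene, by -1.20 ± 0.23 (adjusted p = 0.00697 and 0.0136).

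Fewer genes were called in the next 3 lists. The 8 methyl-CpG readers had 0 called in KO_1E7 against parental (edgeR; 1 higher at an unadjusted p under 0.05, and 0 by DESeq2). The 10 other writers and erasers of H3K36 methylation, Nsd2, Nsd3 and Setd2 among them, had 0 called in any comparison by edgeR or DESeq2 and 0 at an unadjusted p under 0.05. Their median in KO_1E7 against parental was 0.06, with Nsd2 at 0.10 ± 0.13, Nsd3 at 0.28 ± 0.22 and Setd2 at 0.14 ± 0.14. Of 11 tested genes for KRAB and H3K9 silencing, edgeR called 0 against parental (1 higher and 1 lower at an unadjusted p under 0.05, and 1 lower by DESeq2), and Morc2a of the HUSH-linked silencing proteins differed by -0.74 ± 0.19 between the clones (adjusted p = 0.0373).

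In the methyl donor and one-carbon cycle, 19 of 21 genes were tested, with a median of -0.19, and Mtap was the 1 called by edgeR in KO_1E7 against parental. There 6 were lower and 0 higher at an unadjusted p under 0.05 (Ahcy, Ahcyl2, Mtr, Nnmt, Amd1 and Mtap), and DESeq2 called 4 lower and 0 higher. Mtap, which salvages methylthioadenosine, had 27.6, 30.3 and 24.1 CPM in parental, 4.27, 4.76 and 5.28 CPM in KO_1E7, and 6.94, 4.38 and 2.57 CPM in CRISPR_1G2. It fell in both clones, by 2.52 ± 0.33 in KO_1E7 and 2.56 ± 0.33 in CRISPR_1G2 on the log2 scale (edgeR, adjusted p = 0.0111 and 0.0217). Between the clones Ahcyl2, related to the hydrolase of S-adenosylhomocysteine, differed by -0.71 ± 0.17 and Amd1, the S-adenosylmethionine decarboxylase gene, by -0.52 ± 0.14 (adjusted p = 0.0269 and 0.0470). Of the 8 calls against parental over these lists, 0 held in all 9 fits that each left out 1 library. Of the 12 between the clones, 3 held in all (Usp7, Paf1 and Tdg). DESeq2 called all 8 and all 12, among others.

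Several of the called genes lie on chromosomes whose genes were low as a whole in KO_1E7. Paf1, Xrcc1, Kmt2b and Fbxl19 lie on chromosome 7, with a median of -0.45 over 1240 tested genes against parental. Usp7 lies on chromosome 16, with a median of -0.37 over 459. The part of these shifts in the gene values was not tested. Chromosomes 13 and 19, which hold Nsd1 and Uhrf2, had medians of 0.14 and -0.11.

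**Figure D5:**
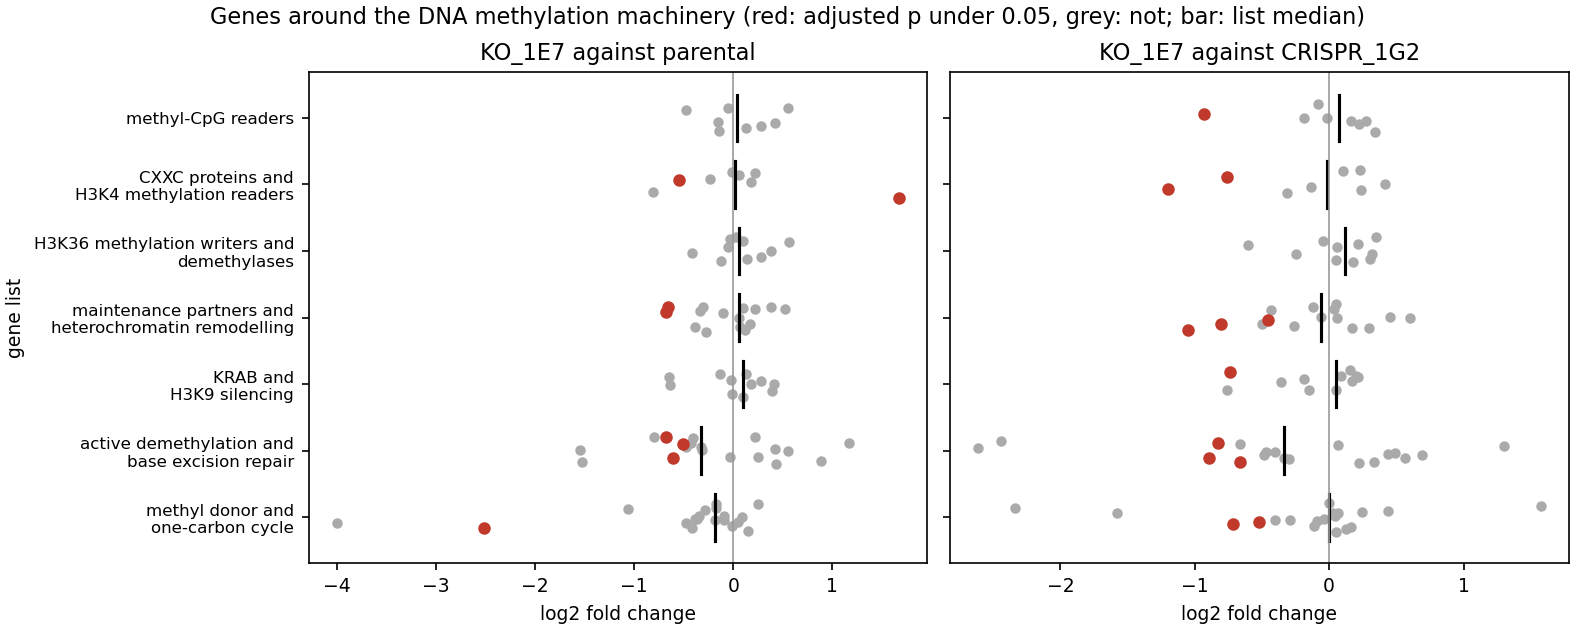
Log2 fold change of each tested gene in 7 lists around the DNA methylation machinery, for KO_1E7 against parental (left) and against CRISPR_1G2 (right), with red points for genes at an adjusted p under 0.05, grey points for the rest and a bar for the list median. Left, 8 points are red and 7 of them lie below 0; right, 12 are red and all lie below 0.

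Germline genes that somatic cells commonly keep methylated were mostly silent. Of 25 listed, 3 were tested, 5 had 0 counts in every library, and edgeR called 0 in any comparison. At an unadjusted p under 0.05, 1 was lower against parental and 2 between the clones, and DESeq2 called 1 in each. The exception in level was Rhox5, an X-linked homeobox gene known for promoter methylation, named after its values were seen. It had 312, 344 and 194 CPM in parental, 6.36, 91.3 and 4.48 CPM in KO_1E7, and 583, 496 and 239 CPM in CRISPR_1G2. KO_1E7 lay below the other groups in every library, as it did for 17.3% of all tested genes against parental and 19.4% against CRISPR_1G2. KO_1E7 2 again lay above KO_1E7 1 and 3, at 30.9% of the way to parental. The log2 fold change of Rhox5 was -3.05 ± 1.05 against parental and -3.69 ± 1.08 against CRISPR_1G2, and neither passed (edgeR, adjusted p = 0.124 and 0.0566).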

How the data were processed

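The values deposited by the authors were unnormalized read counts by gene, in 1 table of the series and 1 per sample, which differed in 0 cells. Per the submitters' processing notes, the tools were bcl2fastq 2.17, the aligner STAR 2.5.2b, and featureCounts from Subread 1.5.2 for counting, with build GRCm38. The poly(A) library kit does not mark strand. Rows of 92 spike-in controls (0.344% to 0.820% of counts) were left out. Libraries of a group differed by 8.84 or more in chi-square per gene, so none was a duplicate.

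Here counts were scaled by TMM and tested in edgeR 4.0.16 (R 4.3.3) by its robust quasi-likelihood F-test, with the 3 groups in 1 fit over 15766 genes that passed its expression filter, and Benjamini-Hochberg adjusted p-values called at 0.05. DESeq2 1.42.0 was an alternative. The steps were tested on simulated data. CPM used TMM-scaled library sizes, RPKM the exon length in the table. Named genes were the 9 members, up to 4 called genes per list and comparison by size of change, the 5 genes most like Uhrf2 and Nsd1 by Pearson r of log2 CPM (prior count 2), and the 3 nearest tested genes on each side; 2 genes that this rule names are not reported here. The members and lists were chosen with earlier results of these data known. Deviations of same-numbered parental and CRISPR_1G2 libraries correlated at 0.243, 0.469 and 0.647. Parental 2 correlated more with CRISPR_1G2 1, at 0.540, and these libraries carry the same date in their deposited names. The replicate numbers therefore do not set the pairs by that measure. Deviations of KO_1E7 libraries correlated with those of the same number in the other groups at -0.0497 to 0.153. Promoters are RefSeq's on GRCm38.p6.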

Additional observations from a re-analysis of the deposited data

How the results depend on the processing

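Over 21 alternatives, 20 of them planned, the 24 log2 fold changes of the 8 tested genes gave 504 values: 449 kept direction and side of the threshold, 28 kept direction but no longer passed, 16 newly passed and 11 changed sign. Counts of calls below include Uhrf2 and Nsd1, which were chosen on these libraries. The 2 genes called lower in KO_1E7 against parental became 1 with no filter on low counts, with only the 2 groups compared and with the third library of each group left out, and 1 to 2 when single libraries were left out (1 without any parental library, KO_1E7 1, KO_1E7 3, CRISPR_1G2 1 or CRISPR_1G2 2). The gene lost was Uhrf2, whose log2 fold change stayed between -5.51 and -3.04. The 3 called lower between the clones became 1 with only the 2 groups compared and with the third libraries left out, and 1 to 3 when single libraries were left out. They became 4 with a term for NSG in the name, with Dnmt3b added. With parental 3 and CRISPR_1G2 3 left out they stayed 3, with Dnmt3b in place of Uhrf2 (edgeR, adjusted p = 0.05235 for Uhrf2). The 0 called higher became 2 with the NSG term, 1 with the third libraries left out and 3 with parental 3 and CRISPR_1G2 3 left out. With parental 3, CRISPR_1G2 3 and KO_1E7 2 left out (added after the data had been seen), KO_1E7 had 4 lower and 1 higher against parental and 5 lower and 3 higher against CRISPR_1G2. Calls over all genes moved too. Across the fits they ran from 16 to 1983 higher and 8 to 2440 lower in KO_1E7 against parental. Between the clones they ran from 273 to 2675 higher and 180 to 2882 lower. The counts of members are therefore not read as a result about the 8 genes. The cause of these moves was not tested. With a block for replicate number, 2 of the 8 genes were called lower and 0 higher in KO_1E7 against parental. Between the clones 3 were lower and 0 higher, and 0 were called for CRISPR_1G2 against parental. These counts were the same without the block. Over all genes 709 in place of 453 were lower in KO_1E7 against parental. Replicate numbers do not follow the dates in the deposited names, and pairing by date was not tested. DESeq2 called 1091 genes higher and 1267 lower there, where edgeR called 401 and 453, 69 and 166 against 0 and 40 for CRISPR_1G2 against parental, and 1527 and 1847 against 901 and 1109 between the clones. Signs changed where values were near 0. For CRISPR_1G2 against parental, Tet3 became -0.086 with the third libraries left out, -0.0853 without parental 3 and CRISPR_1G2 3, and -0.0788 without KO_1E7 2 as well. With single libraries left out, that comparison gave -0.17 to 0.38 for Tet3, -0.37 to 0.0131 for Dnmt1 and -0.50 to 0.0194 for Uhrf1, with the sign changed without CRISPR_1G2 3, -0.54 to 0.0202 for Uhrf2, changed without CRISPR_1G2 1, and -0.40 to 0.17 for Tet2, changed without CRISPR_1G2 1 (0.0253) or parental 3. For KO_1E7 against parental, Tet2 ranged from -0.0083 to 0.43, changed without KO_1E7 2 or parental 1 (-0.0021). Library totals in place of TMM kept all 27 RPKM means within 1 SD. Depth limits Tet1 alone among the 9 genes.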
